A study of Mus musculus with 6 samples.

Results

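The genes examined here belong to the coagulation and plasminogen systems: F3, F10, Plau, Plaur, Serpinb2, Thbs1, Thbd and Procr. They were chosen by gene name, as every non-control spot of the arrays that carries a listed name, and all 8 of the 8 genes were found. They account for 8 of 34787 gene names and for 10 of 55681 probes, F3 and F10 having 2 probes each and the other genes 1 each. RNA of mouse macrophages grown from bone marrow was measured on 1-color Agilent arrays. The question asked of the arrays was how an inhibitor of the deubiquitinase USP7 alters the transcriptional response to LPS, the outer membrane component of Gram-negative bacteria that signals through TLR4.

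The cells came from wild type C57/B6 female mice and were differentiated for 7 days in medium conditioned by L929 cells. The labels put the mice at 6 to 8 weeks of age, and the methods of the study state an older range. There were 3 groups of 2 arrays, which makes 6 arrays. Untreated cells received nothing, LPS cells received 100 ng/ml LPS for 4 h, and LPS+USP7i cells received 10 µM HBX41,108, a small molecule inhibitor of USP7, 30 min before the same LPS treatment. The series description gives the LPS dose per ml, whereas the treatment protocol in the labels gives the same figure per µl. Whether the LPS group was also given the solvent of the inhibitor is not stated, and any solvent effect is part of the LPS+USP7i minus LPS difference. The 2 samples of a group are described as coming from independent experiments. All arrays lay on 1 slide read in 1 scan, where rows 1, 2 and 4 held the untreated, LPS and LPS+USP7i arrays, so slide row and treatment cannot be told apart.

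Coagulation starts when tissue factor, the product of F3, meets factor VII in plasma, and the pair activates factor X, the product of F10, which in turn makes thrombin. Thrombomodulin (Thbd) on the cell surface turns thrombin into an activator of protein C, and the endothelial protein C receptor (Procr) presents protein C to it, so both act as brakes on clotting. Clots and matrix are broken down by plasmin, made from plasminogen by urokinase (Plau) bound to its receptor (Plaur) or by tissue plasminogen activator (Plat), and held back by inhibitors such as PAI-2 (Serpinb2). Macrophages are known to make several of these proteins when activated. Thbs1 encodes thrombospondin-1, a matrix glycoprotein that binds CD36 and CD47.

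Values are log2 normalized signals, given for replicate 1 and then replicate 2, and a gene was called when its adjusted p value was under 0.05 in a limma fit of all 6 arrays. A level of one probe is not comparable with that of another, so only differences within a probe are described. The standard error (SE) of each log2 difference comes from the same fit. Probe positions are those of the array design on mm9, and exon or UTR annotation of that build was not used here. Of the 8 genes, each taken by its probe of highest mean signal, LPS raised 4 (F3, Plaur, Serpinb2 and Procr) and lowered 1 (Thbd) relative to untreated cells. Over all gene names, 7.98% were called higher and 12.8% lower in that comparison. All 8 genes were well above background on every array. With dim probes left out, 17.2% of the 18328 gene names left were higher and 28.3% lower. Between LPS+USP7i and LPS, 1 of the 8 genes (Procr) was higher with the inhibitor and 0 were lower, beside 5.52% and 4.27% of all gene names; at an unadjusted limma p under 0.05, 4 were higher and 1 lower, beside 14.3% and 11.7%. LPS+USP7i cells compared with untreated cells had 3 genes called higher (Plaur, Serpinb2 and Procr) and 1 lower (Thbd), against 6.16% and 8.71% of all gene names. The LPS arrays enter the first and the second of these comparisons and the untreated arrays the first and the last, so the comparisons are not independent. The median log2 difference of the 8 genes was 1.20, 0.46 and 1.57 in the same order, and that of all gene names was 0.002, 0.001 and -0.002. Every called direction below rests on 2 arrays against 2, for which an exact two-sided permutation test of a single gene cannot give a p below 0.333, and calls rest on the spread shared across groups with 3 residual degrees of freedom. Because these are bulk samples, fewer cells expressing a gene and less RNA per cell cannot be told apart. The arrays measure RNA and not protein, so a protein name below stands for the RNA of its gene wherever a value is given.

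**Figure D1:**
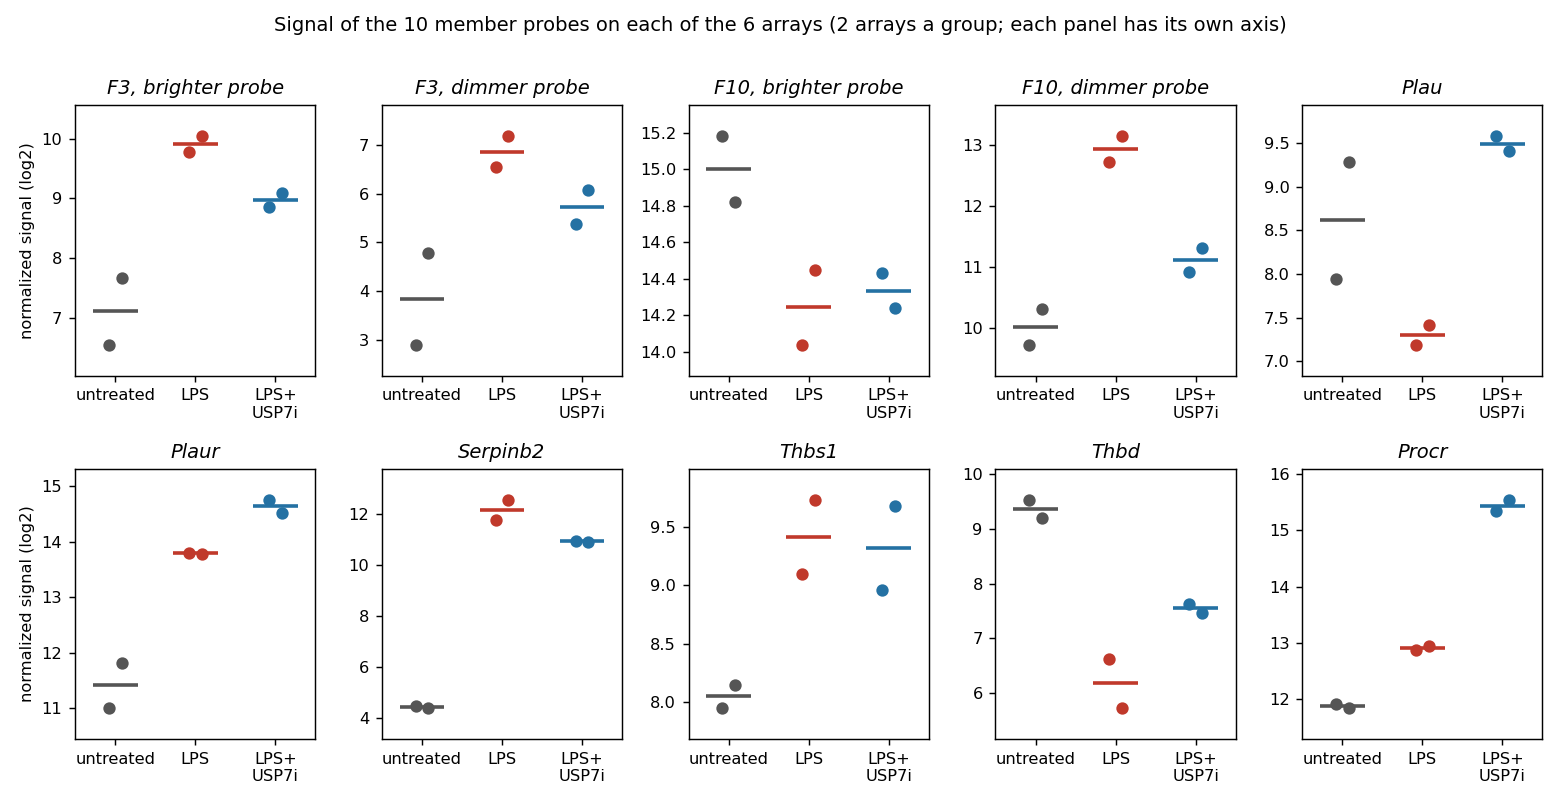
Normalized log2 signal (vertical axis, a separate scale in each panel) of the 10 probes of the 8 genes on each of the 6 arrays. Points are single arrays and horizontal lines are group means; Serpinb2 lies at 4.38 and 4.47 in untreated cells and at 10.88 or above on all LPS and LPS+USP7i arrays, and Procr is highest on both LPS+USP7i arrays.

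F3, the gene of tissue factor, was called higher in RNA with LPS by its brighter probe. The probe with the higher signal for F3 (chr3:121437717-121437776, mm9) read 6.55 and 7.66 on the untreated arrays, 9.78 and 10.04 after LPS and 8.85 and 9.09 after LPS+USP7i. The 3 groups did not overlap, and both LPS+USP7i arrays lay between the untreated and the LPS arrays. F3 rose by 2.80 with LPS (SE 0.41, 6.97-fold, adjusted p = 0.0211). This call was lost without LPS replicate 1 (adjusted p = 0.0888), without LPS replicate 2 (0.0948), and without either LPS+USP7i array or with only the groups compared (0.0564). The difference between LPS+USP7i and LPS was -0.94 (SE 0.41, adjusted p = 0.314), and that between LPS+USP7i and untreated cells was 1.87 (SE 0.41, adjusted p = 0.0681), neither of which passed the threshold. The last difference passed with 75th percentile scaling (1.87, adjusted p = 0.0199), normexp background correction (1.47, 0.00751), the deposited log2 table (1.75, 0.0245) and dim probes left out (1.87, 0.0154), and without untreated replicate 2 (2.42, 0.0478).

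The other F3 probe is placed by the array design at chr3:121434609-121435346 (mm9), a span of 738 bases for a probe of 60, so its match is split. It read 2.91 and 4.79 on the untreated arrays, 6.55 and 7.17 after LPS and 5.38 and 6.07 after LPS+USP7i, and was not well above background on untreated replicate 1. Its groups followed the same order as those of the first probe. Its differences were 3.01 for LPS minus untreated (adjusted p = 0.0711), -1.14 for LPS+USP7i minus LPS (0.527) and 1.88 for LPS+USP7i minus untreated (0.230), and none passed in the main fit. The LPS difference of this probe passed with 75th percentile scaling (adjusted p = 0.0196), normexp (1.08, 0.00961), the deposited table (1.87, 0.0303), dim probes left out (3.01, 0.0155) and a replicate block (3.01, 0.0340), and without untreated replicate 2 (3.95, 0.0483).

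Factor X, the protease that tissue factor activates, gave opposite readings from its 2 probes. The sequences are shown because they differ in kind. Capitals mark the repeated unit AAAG in the first 30 bases of the repeat probe, and the other probe is given whole.
F10 repeat probe, first 30 bases: agAAAGAAAGAAAGAAAGAAAGAAAGAAAG
F10 other probe: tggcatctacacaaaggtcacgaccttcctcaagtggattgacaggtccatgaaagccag
The repeat probe lies at chr8:13056223-13056290 and the other at chr8:13055774-13055833 (mm9). Over its 60 bases the repeat probe holds 40 A, 20 G, 0 C and 0 T and uses 8 different words of 4 bases, against 54 in the other probe and a median of 49 over all probes. As few as 12 of the 55681 probes use 8 or fewer such words. The probes are assigned to 2 different RefSeq transcripts of F10.

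On the repeat probe, F10 read 15.18 and 14.82 on the untreated arrays, 14.04 and 14.45 after LPS and 14.43 and 14.24 after LPS+USP7i. Untreated arrays were the highest, and the LPS and LPS+USP7i arrays overlapped. The differences were -0.76 for LPS minus untreated (SE 0.21, adjusted p = 0.0948) and 0.09 for LPS+USP7i minus LPS (SE 0.21, adjusted p = 0.886), and neither passed; the first did with normexp (-0.80, adjusted p = 0.0137) and with dim probes left out (-0.76, 0.0341), whereas 75th percentile scaling gave -0.15 (0.596), and it lay between -0.96 and -0.55 with each array left out, where it never passed. The LPS+USP7i minus untreated difference was -0.66 (SE 0.21, adjusted p = 0.148), which did not pass in the main fit and did with normexp (-0.71, 0.0271). The repeat probe has the higher mean signal and so represents F10 in the counts. Whether its signal comes from F10 transcripts was not tested, so its values may not describe F10.

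On the other probe, F10 read 9.72 and 10.30 on the untreated arrays, 12.72 and 13.14 after LPS and 10.92 and 11.30 after LPS+USP7i. No group overlapped another, LPS was highest and LPS+USP7i lay between. The LPS+USP7i minus untreated difference was 1.10 (SE 0.29, adjusted p = 0.102), which did not pass in the main fit. That difference passed with 75th percentile scaling (1.13, adjusted p = 0.0436), normexp (1.06, 0.0319), dim probes left out (1.10, 0.0296) and a replicate block (1.10, 0.0215). By this probe F10 rose by 2.92 with LPS (SE 0.29, 7.56-fold, adjusted p = 0.00893) and was lower with LPS+USP7i than with LPS, where it fell by 1.82 (SE 0.29, 3.53-fold, adjusted p = 0.0430). The second call was lost when any single array was left out, with adjusted p values of 0.0820 (either untreated array), 0.111 and 0.141 (LPS replicate 1 and 2) and 0.146 and 0.0854 (LPS+USP7i replicate 1 and 2). With this probe in place of the repeat probe, a choice made after seeing the data, 5 of the 8 genes were higher and 1 lower with LPS. Of all gene names, 7.98% were higher and 12.8% lower in that comparison. Between LPS+USP7i and LPS, 1 of the 8 genes was higher and 1 lower, beside 5.52% and 4.27% of all gene names.

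The brakes on clotting moved apart with LPS. Thbd, read at chr2:148230235-148230294 (mm9), gave 9.52 and 9.19 on the untreated arrays, 6.63 and 5.73 after LPS and 7.63 and 7.47 after LPS+USP7i. Both untreated arrays were above all others, and both LPS arrays were the lowest. Thbd fell by 3.17 with LPS (SE 0.35, 9.03-fold, adjusted p = 0.0107), a call lost without untreated replicate 1 (0.0632) or untreated replicate 2 (0.0584). It also was lower in LPS+USP7i than in untreated cells, where it fell by 1.80 (SE 0.35, 3.49-fold, adjusted p = 0.0488), and leaving out any untreated or LPS+USP7i array ended that call (adjusted p from 0.142 to 0.192). The 2 LPS+USP7i arrays did not overlap the LPS arrays, and the difference of 1.37 between them (SE 0.35, adjusted p = 0.106) did not pass, although it did with normexp (0.78, adjusted p = 0.0262) and with dim probes left out (1.37, 0.0299).

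Procr was the one gene of the 8 called in all 3 comparisons. Its probe (chr2:155580945-155581004, mm9) read 11.92 and 11.84 on the untreated arrays, 12.88 and 12.95 after LPS and 15.34 and 15.54 after LPS+USP7i. Replicates lay within 0.21 of each other, and every group was separated from the next. Procr rose by 1.04 with LPS (SE 0.10, 2.05-fold, adjusted p = 0.00814) and was higher by a further 2.52 with LPS+USP7i than with LPS (SE 0.10, 5.75-fold, adjusted p = 0.0104). Against untreated cells the LPS+USP7i difference was 3.56 (SE 0.10, 11.8-fold, adjusted p = 0.00384). The rise with LPS did not pass without untreated replicate 2 (1.0, adjusted p = 0.0557). In LPS+USP7i against LPS, Procr had an adjusted p of 0.0561 when either untreated array was left out or only those groups were fitted, settings in which 0 of all gene names passed in that comparison although 4330 were higher at an unadjusted limma p under 0.05.

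**Figure D2:**
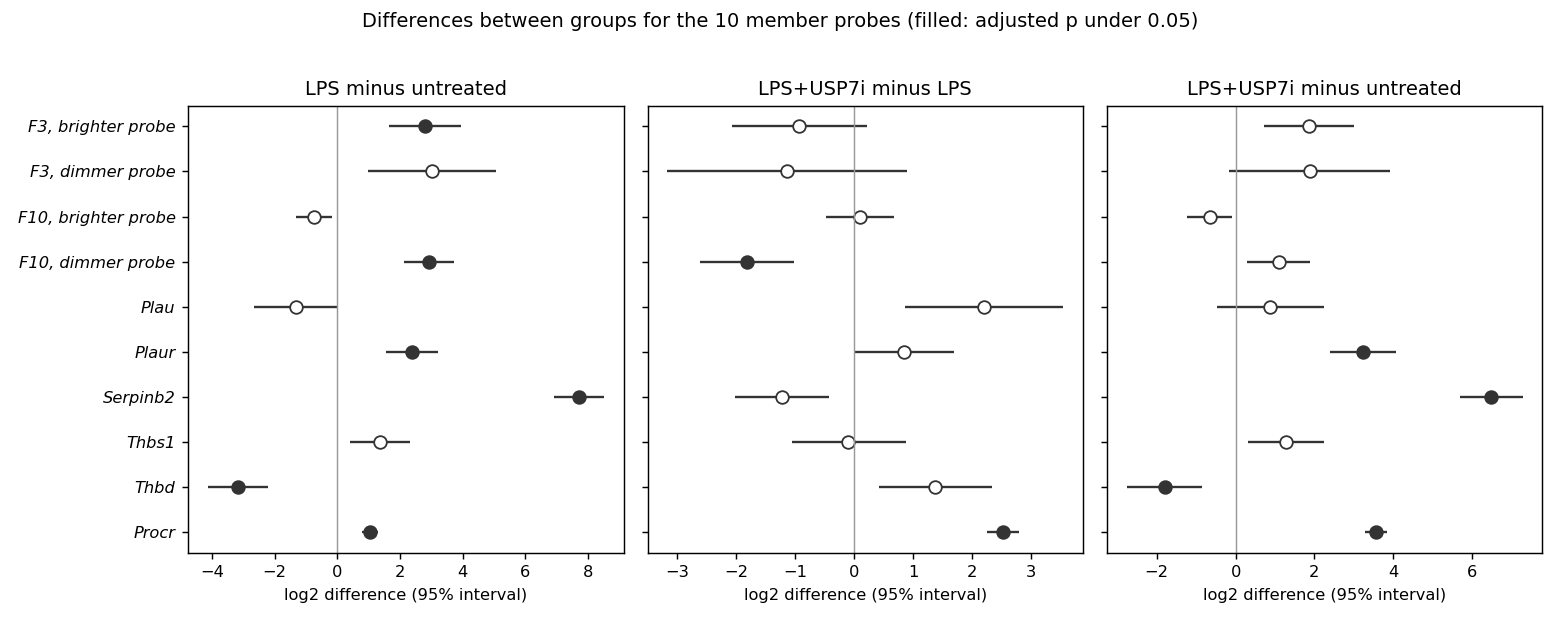
Log2 difference (horizontal axis) of each of the 10 probes in the 3 comparisons, with 95% intervals from the limma fit; filled circles have an adjusted p under 0.05. Serpinb2 is furthest to the right for LPS minus untreated (7.71), Thbd is furthest to the left (-3.17), and Procr is the filled circle above zero for LPS+USP7i minus LPS (2.52).

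Of the plasminogen system, the urokinase receptor rose with LPS. Plaur (chr7:25260569-25260628, mm9) read 11 and 11.82 on the untreated arrays, 13.80 and 13.78 after LPS and 14.75 and 14.52 after LPS+USP7i. The LPS+USP7i arrays were the highest and no groups overlapped. Plaur rose by 2.38 with LPS (SE 0.30, 5.21-fold, adjusted p = 0.0148), a call lost without LPS replicate 1 (0.0781) or LPS replicate 2 (0.0711). Relative to untreated cells it was 3.22 higher with LPS+USP7i (SE 0.30, 9.35-fold, adjusted p = 0.0114; 0.0508 without LPS+USP7i replicate 1), and the difference of 0.84 between LPS+USP7i and LPS did not pass (SE 0.30, adjusted p = 0.215).

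Urokinase itself showed another order. Plau (chr14:21662242-21662301, mm9) read 7.94 and 9.29 on the untreated arrays, 7.19 and 7.41 after LPS and 9.58 and 9.41 after LPS+USP7i. The untreated arrays were 1.35 apart, the LPS arrays were the lowest, and the LPS+USP7i arrays were above both other groups. Plau differed by -1.32 between LPS and untreated cells (SE 0.49, adjusted p = 0.182), by 2.19 between LPS+USP7i and LPS (SE 0.49, adjusted p = 0.0825) and by 0.88 between LPS+USP7i and untreated cells (SE 0.49, adjusted p = 0.411), and no difference passed. Without untreated replicate 1, the array with the lower untreated value, the LPS difference was -1.99 (adjusted p = 0.0301), and without untreated replicate 2 it was -0.64 (0.139). The LPS+USP7i difference from LPS passed with normexp background correction (1.75, adjusted p = 0.0190), in the deposited log2 table (2.08, 0.0420) and with dim probes left out (2.19, 0.0198).

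PAI-2, an inhibitor of urokinase that is largely kept inside cells, had the largest change among the 8 genes. Serpinb2 (chr1:109422046-109422105, mm9) read 4.47 and 4.38 on the untreated arrays, 11.73 and 12.53 after LPS and 10.94 and 10.88 after LPS+USP7i. All LPS and LPS+USP7i arrays were far above the untreated arrays, and both LPS+USP7i arrays were below both LPS arrays. It rose by 7.71 with LPS (SE 0.29, 209-fold, adjusted p = 0.00280) and by 6.48 with LPS+USP7i relative to untreated cells (SE 0.29, 89.4-fold, adjusted p = 0.00509), and both calls held when any single array was left out. The untreated values lie close to the lowest signals well above background on those arrays (3.87 and 3.95), and the 2 differences were 5.73 and 4.53 with normexp and 6.81 and 5.58 in the deposited table. The difference between LPS+USP7i and LPS was -1.22 (SE 0.29, adjusted p = 0.0932), which did not pass; it passed without LPS replicate 1 (-1.62, adjusted p = 0.0255), with normexp background correction (-1.21, 0.0190) and with dim probes left out (-1.22, 0.0265).

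Thrombospondin-1 passed in no comparison of the main fit. Thbs1 (chr2:117952585-117952644, mm9) read 7.95 and 8.15 on the untreated arrays, 9.10 and 9.73 after LPS and 8.96 and 9.68 after LPS+USP7i. All 4 LPS-stimulated arrays lay above both untreated arrays, while the LPS and LPS+USP7i groups overlapped. The differences were 1.37 for LPS minus untreated (SE 0.35, adjusted p = 0.0782), -0.10 for LPS+USP7i minus LPS (SE 0.35, adjusted p = 0.953) and 1.27 for LPS+USP7i minus untreated (SE 0.35, adjusted p = 0.110). The LPS difference passed with 75th percentile scaling (1.39, adjusted p = 0.0332), normexp (1.16, 0.0152), the deposited table (1.33, 0.0276), dim probes left out (1.37, 0.0202) and a replicate block (1.37, 0.0297). That between LPS+USP7i and untreated cells passed with 75th percentile scaling (1.27, adjusted p = 0.0438), normexp (0.99, 0.0350), dim probes left out (1.27, 0.0306) and a replicate block (1.27, 0.0403).

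Promoter sequences from RefSeq were searched because F3, Plaur, Serpinb2 and Procr were all raised by LPS. Windows of 300 bases around the start were given for 5 of the 8 genes (F3, F10, Plaur, Serpinb2 and Procr), with 6 windows in all, 2 of them for Serpinb2. All motifs were searched on both strands. The AP-1 motif TGANTCA was present in 4 of these 5 genes, all but F10, and in 7.81% of the 32851 windows of the table. By its other probe F10 was also called higher with LPS (2.92), and no window was given for Plau, Thbs1 or Thbd. The windows therefore allow no comparison of motifs between genes raised by LPS and other genes of the 8. The NF-kB consensus, searched only as an exact match, was present in 0 of the 5 genes and in 4.51% of all windows. NF-kB sites that depart from that consensus at any base were not searched for, so this count does not show that the windows lack such sites. The GC box GGGCGG was present in 2 genes (F3 and Plaur) and 35.7% of windows. TATAAA was present in 2 genes and 13.6% of windows, at -29 on the strand of the gene in the Serpinb2 window below and at 44 past the start on the opposite strand in F3. Some GC box matches in Plaur overlap each other. The windows of 3 of the induced genes follow, 5′ to 3′ on the strand of the gene (GRCm38.p6, plus strand in each), with AP-1 matches in capitals.
F3, chr3:121723287-121723586: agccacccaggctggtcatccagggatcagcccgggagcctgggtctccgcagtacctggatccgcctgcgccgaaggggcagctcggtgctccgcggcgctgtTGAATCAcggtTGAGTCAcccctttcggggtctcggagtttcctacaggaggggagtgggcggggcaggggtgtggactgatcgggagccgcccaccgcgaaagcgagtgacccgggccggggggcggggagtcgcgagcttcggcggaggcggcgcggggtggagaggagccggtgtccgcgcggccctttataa
Plaur, chr7:24462233-24462532: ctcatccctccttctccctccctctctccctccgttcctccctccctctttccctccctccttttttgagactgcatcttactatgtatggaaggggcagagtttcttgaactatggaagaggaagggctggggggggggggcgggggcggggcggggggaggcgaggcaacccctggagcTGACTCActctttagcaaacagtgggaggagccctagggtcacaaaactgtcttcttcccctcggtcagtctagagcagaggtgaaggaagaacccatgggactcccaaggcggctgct
Serpinb2, chr1:107511173-107511472: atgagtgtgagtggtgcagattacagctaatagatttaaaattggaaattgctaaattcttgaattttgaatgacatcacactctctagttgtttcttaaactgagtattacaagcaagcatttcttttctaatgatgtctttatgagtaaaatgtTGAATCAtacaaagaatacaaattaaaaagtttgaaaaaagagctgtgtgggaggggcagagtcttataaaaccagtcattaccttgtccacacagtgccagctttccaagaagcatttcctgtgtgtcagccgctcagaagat
The AP-1 matches begin at -146 and -135 from the start in F3, at -69 in Plaur, at -94 in this window of Serpinb2 and at -154 in Procr. A match describes the letters in a window and says nothing of binding.

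Genes with the most similar profile were found for each gene as the smallest root mean square (RMS) difference of the 6 centred log2 values, among 13258 other genes detected well above background in a whole group. For Serpinb2 these were Tnf (RMS 0.306), Socs3 (0.318) and Olr1 (0.418). Procr was closest to Suco (0.164), Ahr (0.175) and Gm13272 (0.207), and Plaur to Ugcg (0.215), Ttc39c (0.266) and Sgms2 (0.273). The aryl hydrocarbon receptor gene Ahr, for instance, had group means of 7.74, 9.18 and 11.39 in untreated, LPS and LPS+USP7i cells. Thbd was nearest to Eepd1 (0.211), P2ry1 (0.218) and Casp9 (0.240), and Plau to Spsb4 (0.193), Sh2b2 (0.277) and Wwc1 (0.292). F3 was nearest to Olfr1131 (0.190), Rbpms (0.209) and Rhou (0.216), and Thbs1 to Ass1 (0.164), Slc30a4 (0.171) and Baz1a (0.180). F10 had Cyb5d2 (0.090), Entpd4 (0.101) and 5530601H04Rik (0.102) nearest to its repeat probe and Pard6g (0.145), Kpna3 (0.168) and Hopx (0.170) nearest to its other probe.

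A further 54 genes of the same systems were followed in 6 lists, and 24 of them were well above background on all arrays and 21 on none. LPS raised 5 of the 54, among them Plat, Klkb1, Serpinc1 and Cd47, and lowered 3 (Lrp1, Itgam and Plgrkt), beside 7.98% and 12.8% of all gene names. LPS+USP7i compared with LPS raised 3 (Serpinf2, Comp and Serpinc1) and lowered 3, Plat and Cd47 among them, beside 5.52% and 4.27%. In LPS+USP7i compared with untreated cells 8 were higher and 2 lower, beside 6.16% and 8.71%. The median difference of the 54 genes was 0.02, -0.02 and -0.04 in the 3 comparisons, close to that of all gene names. With 75th percentile scaling, 12150 gene names were higher and 4048 lower with LPS in place of 2775 and 4443, the median of all moved to 0.403, and 19 of the 54 were higher and 1 lower, beside 34.9% and 11.6% of all gene names.

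Among 8 plasminogen activators and inhibitors, 2 were raised by LPS and 0 lowered (7.98% and 12.8% of all gene names). Plat, the gene of tissue plasminogen activator, gave 2.03 and 2.04 on the untreated arrays, neither well above background, 7.84 and 8.54 after LPS and 5.72 and 5.65 after LPS+USP7i. For a group with a probe below that level on each of its arrays, a fold is given as a bound, the mean of the brighter group over the mean, per array, of the higher of the lowest signal well above background and the probe's own value. Plat was at least 19.4-fold higher with LPS (adjusted p = 0.00290) and at least 3.42-fold higher with LPS+USP7i (adjusted p = 0.00731; 0.0532 without untreated replicate 2) than in untreated cells. It fell by 2.50 from LPS to LPS+USP7i (SE 0.25, 5.67-fold, adjusted p = 0.0204), which did not pass without either untreated array (0.0737) or without LPS+USP7i replicate 1 (0.0764) or 2 (0.0617). With normexp its differences from untreated cells were 2.47 with LPS in place of 6.15 and 0.91 with LPS+USP7i in place of 3.65, both smaller than the bounds.

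Serpinf2, which encodes the plasmin inhibitor alpha-2-antiplasmin, was detected well above background in the LPS+USP7i group and in neither of the other groups. It read 6.55 and 5.82 there, at least 3.25-fold higher than with LPS (adjusted p = 0.0327). That call was lost with a replicate block (0.0663) and on leaving out any array (0.0611 to 0.130), and the difference of 3.79 was 0.69 with normexp and 1.25 in the deposited table, both smaller than the bound. Plasminogen itself (Plg), A2m and Hrg stayed below that level on all 6 arrays. Serpine2, a further inhibitor, differed by 0.22 with LPS (adjusted p = 0.639) and by 0.14 between LPS+USP7i and LPS (adjusted p = 0.816), and Cpb2, whose product protects fibrin from plasmin, by 0.24 (0.666) and -0.37 (0.551).

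Of 17 coagulation factors and cofactors, LPS raised 1 and lowered 0 (7.98% and 12.8% of all gene names), and 9 were not well above background on any array, prothrombin (F2) and the fibrinogen chains (Fga, Fgb, Fgg) among them. Klkb1, which encodes plasma prekallikrein, was at least 5.73-fold higher with LPS (adjusted p = 0.0209; 0.0549 to 0.0934 without untreated replicate 1 or either LPS array), and its difference of 2.79 was 0.81 with normexp and 1.54 in the deposited table, again smaller than the bound. F7, the partner of tissue factor, differed by 0.28 with LPS (adjusted p = 0.592) and F5, the cofactor of factor X, by -0.15 (adjusted p = 0.953). F13a1, whose product crosslinks fibrin, read 10.16 and 9.73 after LPS and 8.77 and 8.92 after LPS+USP7i, a difference of -1.10 (adjusted p = 0.121) that did not pass. Vwf, the von Willebrand factor gene, did not pass with LPS by its brighter probe (-1.01, adjusted p = 0.121) and did by its dimmer one (-1.23, adjusted p = 0.0263). None of the 17 passed between LPS+USP7i and LPS in the limma fit, where 5.52% of all gene names were higher and 4.27% lower.

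Of 10 anticoagulant genes, 1 rose with LPS, as did 7.98% of all gene names. Serpinc1, which encodes antithrombin, read 4.10 and 4.38 on the untreated arrays (well above background on 1 of 2), 5.32 and 5.59 after LPS and 6.33 and 6.60 after LPS+USP7i. It rose by 1.22 with LPS (adjusted p = 0.0193) and by a further 1.01 with LPS+USP7i over LPS (adjusted p = 0.0497), and leaving out any array of the compared groups ended the first call (0.0595 to 0.0859) and any array at all the second (0.103 to 0.162). In the deposited table the first did not pass either (0.58, adjusted p = 0.0859), and with normexp the 2 differences were 0.37 and 0.52. Tfpi, the inhibitor of the tissue factor complex, differed by -0.14 with LPS (adjusted p = 0.852) and by 0.10 between LPS+USP7i and LPS (adjusted p = 0.916). Pros1, the protein C cofactor protein S, was lower with LPS+USP7i than in untreated cells, where it fell by 0.79 (adjusted p = 0.0212), a call lost without either untreated or either LPS array (0.0615 to 0.107). Tfpi2 was called higher in the same comparison (adjusted p = 0.0456) with all 6 arrays below the background limit, and that call was lost in 8 of 13 alternatives, with normexp (0.20, adjusted p = 0.186), the deposited table (0.67, 0.127), a replicate block (0.0538) and only the groups compared (0.110) and without any untreated or LPS array (0.110 to 0.179).

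The thrombin receptor F2r was the one protease-activated receptor of 4 above background on any array. It was at least 2.55-fold higher with LPS+USP7i than in untreated cells (adjusted p = 0.0376; 0.108 to 0.159 without any array of these groups, and 0.0609 with a replicate block). With normexp the difference of 2.72 was 0.41 (adjusted p = 0.0575) and by the deposited values 1.08 (0.0503), both smaller than the bound. F2rl1 was among the 3 not well above background on any array.

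Cell surface partners of plasminogen and urokinase gave 3 decreases and 0 increases among 9 genes with LPS, against 12.8% and 7.98% of all gene names. Of these 9 genes, 8 were well above background on all arrays. With dim probes left out, 28.3% of the 18328 gene names left were lower and 17.2% higher with LPS. Lrp1, a scavenger receptor that clears protease-inhibitor complexes, fell by 1.17 (2.25-fold, adjusted p = 0.0193; 0.0752 to 0.0911 without untreated replicate 2 or either LPS array). A second Lrp1 probe, well above background on all arrays, gave 0.02 (adjusted p = 0.981), and the dimmest, below that level on all 6, gave -1.58 (0.00916). Itgam, the CD11b chain of the integrin that binds the urokinase receptor, fell by 0.66 (adjusted p = 0.0233) and Plgrkt, a plasminogen receptor, by 0.30 (adjusted p = 0.0490), and with 75th percentile scaling these differences were -0.22 and -0.06 and did not pass (0.100 and 0.672). Both also failed to pass on leaving out either array of the compared groups (0.0809 to 0.118 for Itgam and 0.124 to 0.186 for Plgrkt). Plgrkt did not pass in the deposited table (0.277), with dim probes left out (0.0888) or with a replicate block (0.0824), nor Itgam by the mean of its probes (0.0553), of which 2 dimmer ones gave -0.48 (0.228) and 0.00 (adjusted p = 1). Itgb2, its integrin partner chain, differed by -0.52 (adjusted p = 0.103), Anxa2 by 0.11 (0.766) and S100a10 by 0.39 (0.311), the last 2 forming a plasminogen receptor complex. In LPS+USP7i against LPS, 0 of the 9 passed in the limma fit, beside 5.52% of all gene names higher and 4.27% lower.

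Among 6 thrombospondins and receptors, Cd47 rose by 0.84 with LPS (adjusted p = 0.0112) and fell by 0.91 with LPS+USP7i relative to LPS (adjusted p = 0.0212). A second Cd47 probe gave 0.73 (adjusted p = 0.0120) and -0.83 (adjusted p = 0.0205), and the dimmest did not pass (1.13, 0.127 and -1.76, 0.0681). By the brightest probe the rise did not pass without untreated replicate 2 (0.0605) or LPS replicate 1 (0.0532), and the fall without any single array other than LPS+USP7i replicate 2 (0.0600 to 0.0765). Comp, a thrombospondin of cartilage matrix, read 5.83 and 6.05 on the untreated arrays, 5.95 and 5.94 after LPS and 8.70 and 8.72 after LPS+USP7i. It was 2.77 higher with LPS+USP7i than with LPS (SE 0.09, 6.80-fold, adjusted p = 0.00987; 0.0561 without either untreated array), or 1.75 higher with normexp, and differed by 0.01 with LPS alone. Cd36, the other main thrombospondin receptor here, differed by -0.42 (adjusted p = 0.504) and 0.87 (adjusted p = 0.209) in these comparisons.

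**Figure D3:**
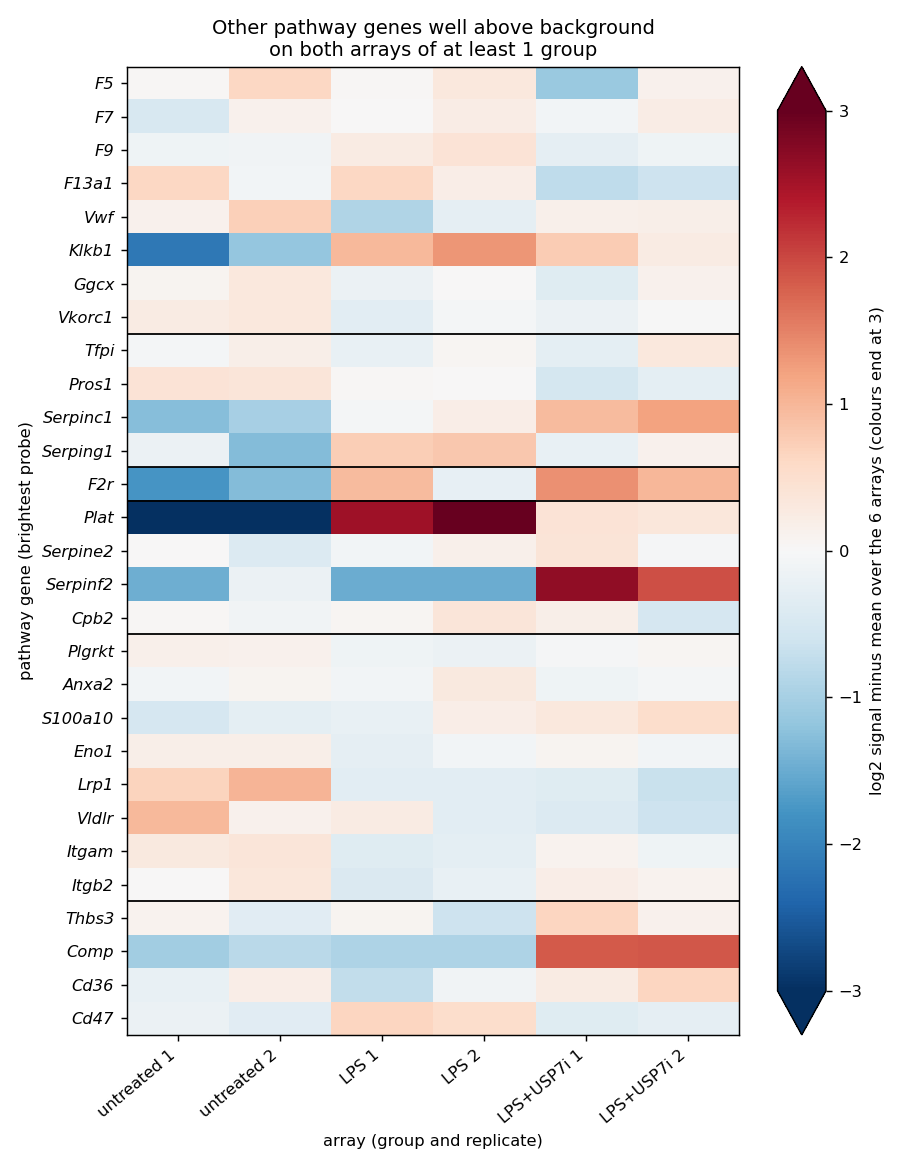
Log2 signal minus its mean over the 6 arrays (color, ending at 3 in each direction) for the 29 pathway genes shown, each detected well above background in a whole group; columns are arrays and black lines separate the 6 lists. Plat is lowest in untreated cells and highest with LPS, whereas Comp and Serpinf2 are highest on both LPS+USP7i arrays.

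The labelled cell type was checked against its markers. All 9 macrophage genes were well above background on every array, and their summed signal, in which each gene counts by its own probe, was 731000 and 724000 on the untreated arrays, 722000 and 749000 after LPS and 626000 and 588000 after LPS+USP7i, with Csf1r making up 27.2 to 37.1% of it. Among them, LPS raised Cd14, and LPS+USP7i lowered Fcgr1 and Cd14 relative to LPS. Of 7 endothelial genes, 1 (Kdr) was above background on all arrays, and Tek, Tie1, Emcn and Robo4 on none. The endothelial sum was 7210, 5380, 7180, 6230, 9850 and 7160 over the arrays in the same order, 98.9% or more of it from Kdr.

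Of 8 platelet genes, Gp1ba and Gp6 were not well above background on any array and 2 were on all. Their sum of 64500, 151000, 54000, 119000, 80600 and 150000 was 99.5% or more Pf4, which was higher in replicate 2 of each group, whereas Ppbp, Itga2b and Gp9 were higher in replicate 1 of each. Neutrophil genes, 6 of 8 of them above background on all arrays, had sums of 5250, 6960, 5870, 11800, 6210 and 9790, of which Elane made up 22.3 to 56.5%. S100a8, S100a9, Elane, Camp, Ltf and Ngp were higher in replicate 2 of each group, and Ly6g and Mpo in replicate 1. T and B cell genes, 2 of 5 above background on all arrays and Cd3g on none, had sums of 881, 603, 1170, 692, 1060 and 747, of which Cd3e made up 55.7 to 89.9%, and Cd3e, Ms4a1 and Cd79a were higher in replicate 1 of each group. The part of these genes in the spread between replicates was not tested.

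Fibroblast genes had sums from 64.2 to 114, 26.6 to 57.5% of it Dcn, and Col1a1, Col3a1, Lum and Pdgfra were above background on no array. Hepatocyte genes, 5 of 6 found on the arrays, had sums from 25.2 to 41.4, 28.7 to 50.8% of it Cyp2e1, and Alb, Apoa1, Ttr and Apoh were on no array. Of 5 dendritic cell genes, Flt3, Xcr1, Cd209a and Clec9a were on no array, while Zbtb46 rose with LPS by its brighter probe (at least 5.65-fold, adjusted p = 0.00435) and did not pass by its dimmer one (0.171), and the sums were 39.7, 45.9, 124, 131, 84.0 and 94.6. No endothelial, platelet, fibroblast, hepatocyte, neutrophil or T and B cell marker was called between any groups by its brightest probe (0 in each list), and a dimmer Kdr probe was 1.38 higher with LPS (adjusted p = 0.0313).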

How the data were processed

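Total RNA of each sample was labeled with Cy3 and hybridized to 1-color Agilent mouse arrays. The authors deposited the scanner output, with spot intensity values corrected for background by Feature Extraction 10.7.3.1, and their normalized log2 table. Here the processed signal of the 59305 non-control spots was quantile-normalized on the log2 scale, as the methods of the study name, outlier-flagged spots were left out, and spots of a probe were averaged. Well above background was taken from the scanner's flag, which 25002 to 27467 spots of an array carried, and 0 spots were saturated. All 6 arrays were fitted with limma 3.58.1 (lmFit, eBayes) in R 4.3.3, p values were adjusted by Benjamini-Hochberg over 55680 probes, and the threshold was 0.05. The fit was tested on simulated data, but no outcome of that test is reported here and no call rests on it. The probe of highest mean signal stood for a gene, giving 34787 names, 22221 of which RefSeq (GRCm38.p6) matched. Replicates correlated with r = 0.996 (untreated), 0.993 (LPS) and 0.991 (LPS+USP7i) over 20705 probes, which are not independent, and the number of arrays limits the precision. The members and gene lists were chosen with earlier results of these data known.

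Named were every member and probe, a fixed list of their partners, the pathway genes with the 4 largest called changes each way in the LPS and in the LPS+USP7i comparison, and the 3 genes most similar to each member. Other genes are named where a count is small, and some genes covered by these rules are not reported here. Alternatives were 75th percentile scaling, normexp with an offset of 50, the deposited table (whose direction and log2 scale followed the scanner values), dim probes left out, flagged spots kept, only the 2 groups compared, a replicate block, each array left out, the mean of probes, any probe, and F10 by its other probe, added after seeing the data.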

Additional observations from a re-analysis of the deposited data

How the results depend on the processing

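The 10 called differences of the 8 genes kept their direction in all 140 alternative values, and 122 also kept their side of the threshold. Of 199 alternative values for the 14 differences not called, 188 kept their direction and 162 also their side. The 24 called pathway differences kept direction in all 335 values and their side in 223. With 75th percentile scaling, 19 pathway genes were higher and 1 lower with LPS, and 5 of the 8 genes and 19 pathway genes were higher in LPS+USP7i than in untreated cells, beside 35.0% of all gene names (median difference 0.437). With normexp, 2 of the 8 genes and 6 pathway genes were lower with LPS (15.3% of all gene names), 3 of the 8 were higher and 1 lower with LPS+USP7i against LPS (8.28% and 6.83%), and 5 of the 8 were higher and 2 lower, with 4 pathway genes lower, in LPS+USP7i than in untreated cells (7.88% and 11.5%). The deposited table gave 2 of the 8 higher in LPS+USP7i than in LPS (3.86% of all). With dim probes left out, 2 of the 8 were lower and 8 pathway genes higher with LPS (28.3% lower and 17.2% higher of the 18328 gene names left), 3 of the 8 were higher and 1 lower, with 5 pathway genes lower, in LPS+USP7i than in LPS (15.1% and 12.9%), and 5 of the 8 were higher in LPS+USP7i than in untreated cells (15.4%). With only the 2 groups compared, limma called 0 of the 8 genes and 0 pathway genes in either direction between LPS+USP7i and LPS (4 of the 8 higher and 2 lower at an unadjusted p under 0.05, beside 12.4% and 10.6% of all gene names), and 4 pathway genes higher and 0 lower against untreated cells (3.87% and 5.62%). Same-numbered arrays deviated together (r = 0.468, 0.398 and 0.422), but the replicate numbers are not stated to pair samples. All replicate 1 arrays lay in slide column 1 and all replicate 2 arrays in slide column 2, so replicate number and slide column cannot be told apart. The main fit uses neither. The replicate block called 5 of the 8 genes higher with LPS (8.43% of all gene names). It called 5 pathway genes higher in LPS+USP7i than in untreated cells (6.36%), which are not all among the main calls. Of the main calls there, the block lost Klkb1 (adjusted p = 0.0785), Tfpi2 (0.0538), F2r (0.0609) and Serpinf2 (0.0698). By the mean of probes, by any probe, or with F10 by its other probe, 1 of the 8 genes was lower in LPS+USP7i than in LPS (4.64% of all gene names by the mean of probes).

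With each array left out in turn, where the lone array is assumed to vary like the others, 2 to 4 of the 8 genes were higher and 0 to 1 lower with LPS, 0 to 1 higher and 0 to 1 lower with LPS+USP7i against LPS, and 2 to 4 higher and 0 to 1 lower in LPS+USP7i than in untreated cells. Pathway genes ranged from 3 to 6 higher and 0 to 3 lower, 0 to 4 higher and 0 to 3 lower, and 2 to 7 higher and 0 to 2 lower in the same order. Of all gene names, 3.27 to 7.43% were higher and 4.73 to 11.6% lower, 0 to 5.48% and 0 to 3.41%, and 1.36 to 5.74% and 1.62 to 5.62% in these fits. F10 changed sign with its other probe (2.92, -1.82 and 1.10 in the 3 comparisons) and with the mean of probes (1.08, -0.86 and 0.22), since the 2 probes differ in sign, and between LPS+USP7i and LPS also with 75th percentile scaling (-0.13) and on leaving out 1 array (from -0.11 to 0.30; -0.11 without LPS replicate 1 and -0.0018 without LPS+USP7i replicate 1). Thbs1 did so without LPS replicate 2 (0.22) or LPS+USP7i replicate 1 (0.27), in a range from -0.46 to 0.27. For other changes the cause was not tested. Signals near background limit Plat, Klkb1, Serpinf2 and F2r, whose folds are bounds.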
